A study of Rattus norvegicus with 6 samples.

Results

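REST binding was examined at genes of the machinery that stores and releases neurotransmitters and hormones, in rat neural stem cells that were quiescent or proliferating. The sites were chosen by gene name: a site belonged when the gene that the study's annotation gives as nearest began with 1 of 24 prefixes, such as Syt, Snap, Rims, Rab3, Chg or Pcsk. This took 58 of the 1775 REST sites of quiescent cells and 40 of the 778 of proliferating cells. The 58 sites lay at 44 genes and the 40 at 30 of these genes, and 3 of the prefixes, Syn1, Syn3 and Slc18a, matched no site. The cells were HCN cells, a line of neural stem cells from the adult rat hippocampus, cultured at multiple passages. Cells grown with FGF2 and BMP4 were the quiescent state, called iQNP, and cells grown with FGF2 alone were the proliferating state, called TAP. Both are cultures of 1 line, so each models a state of these cells and not a tissue, and no expression was analysed here to check the states against marker genes. Each state had 2 ChIP libraries, 1 with a commercial anti-REST antibody and 1 with a homemade antibody preparation, and 1 input library of DNA without immunoprecipitation. The spread between the 2 libraries of a state therefore holds the difference between antibodies, and nothing in the labels says that they came from separate cultures. In units of 1000000 tags, a tag being 1 mapped read, the depth of the ChIP libraries was 28.3 and 29.8 in iQNP, against 25.7 and 25.2 in TAP.

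REST is a zinc finger repressor that binds a long DNA element called RE1 and recruits enzymes that keep neuronal genes low in cells that are not neurons. Small clear vesicles hold classical transmitters, which transporters of the Slc families load, and dense core granules hold chromogranins, secretogranins and peptide precursors that convertases cut. Both kinds of vesicle fuse through SNARE proteins, with synaptotagmins as calcium sensors, complexins as regulators, and active zone proteins such as bassoon, RIM and Munc13 placing and priming them. Many of these genes are textbook REST targets.

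The binding sites could be set beside DNA letters only at promoters, where RefSeq sequence of the GRCr8 build was at hand for 34 of the 44 genes, from 250 bases before to 50 bases after the start of transcription. The tags were mapped to another build, rn4, so positions were compared by their distance from each build's annotated start. The RE1 letters searched were TTCAGCACC, any 2 bases, GGACAG, any base and GCC, on both strands. A match was allowed to differ at up to 4 of the 18 fixed letters. The search, chosen after the sites were known, matched 194 of 33469 promoters, or 0.58%. A second search took TTCAGCACC followed by GGACAG with 0 to 10 bases between them. A match here was allowed to differ at up to 2 of the 15 letters, and 368 promoters, or 1.1%, had one. Both stretches were exact in 13 promoters, or 0.0388%, and 3 of these were of Scg2, Ptprn2 and Unc13a. Of the 17 genes with a REST site within 300 bp of the start, 16 had a promoter sequence, and the sequences of 5 of them held a match of either kind. These 5 are printed because the position of the letters can be read against the position of the REST site; they run along the gene's own strand, capitals mark the match, and all 5 matches lie on the opposite strand.
Vgf, chr12:25277006-25277056, minus strand: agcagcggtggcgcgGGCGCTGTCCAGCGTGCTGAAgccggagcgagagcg
Rph3a, chr12:41203312-41203352, plus strand: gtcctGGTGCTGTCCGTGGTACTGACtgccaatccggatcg
Scg2, chr9:88256905-88256949, minus strand: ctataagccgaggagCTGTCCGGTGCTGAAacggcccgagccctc
Ptprn2, chr6:143582526-143582570, plus strand: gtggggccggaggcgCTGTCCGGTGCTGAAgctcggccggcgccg
Unc13a, chr16:18415760-18415812, minus strand: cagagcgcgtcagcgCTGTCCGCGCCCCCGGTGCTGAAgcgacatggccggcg

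The Vgf match differed from the RE1 letters at 1 of 18 positions and its middle lay at -11 bp from the start, whose first base is counted as 0, where the REST site was centred at -2 bp in rn4. The Rph3a match differed at 3 positions, with its middle at -235 bp and the REST site at -244 bp. In Scg2 and Ptprn2 the 2 stretches were exact and abutted with 0 bases between them, with their middles at -61 and -20 bp and the REST sites at -55 and -15 bp. In Unc13a both stretches were exact with 8 bases between them, the middle lay at the start itself, and the REST site was at 1 bp. A match is a description of letters in these windows, and its absence from the other promoters says only that these letters are not in them. The promoter of Sypl2 also held a match, with 4 differing letters, but the REST site at Sypl2 lay 11.9 kb away from its start.

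A larger share of the sites lay near transcription start sites than of REST sites in general. Of the 58, 24 lay within 1 kb of the start (41.4%; 95% Wilson interval, 29.6 to 54.2), against 344 of all 1775 iQNP sites, or 19.4% (17.6 to 21.3). Within 10 kb lay 34, or 58.6%, against 34.6% of all iQNP sites. No test was run on these shares, and the intervals cover counting error only. Downstream of it lay 14 of the 24 close sites, 8 of them in intron 1 or exon 1, against 119 of the 344 close sites in general. By the annotation, 14 of the 58 were promoter-TSS sites, 20 were in introns and 19 were intergenic. Not every assignment by nearest gene places the site in the gene: the 3 sites named for Vamp3 lay in intron 6 of Camta1, and both Cplx3 sites at the end or in exon 10 of Lman1l. A site on chromosome 12 was assigned to Unc13a from 60.1 kb away, although the other Unc13a site, at a promoter, is on chromosome 16, where the RefSeq table of the GRCr8 build also has the gene.

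**Figure D1:**
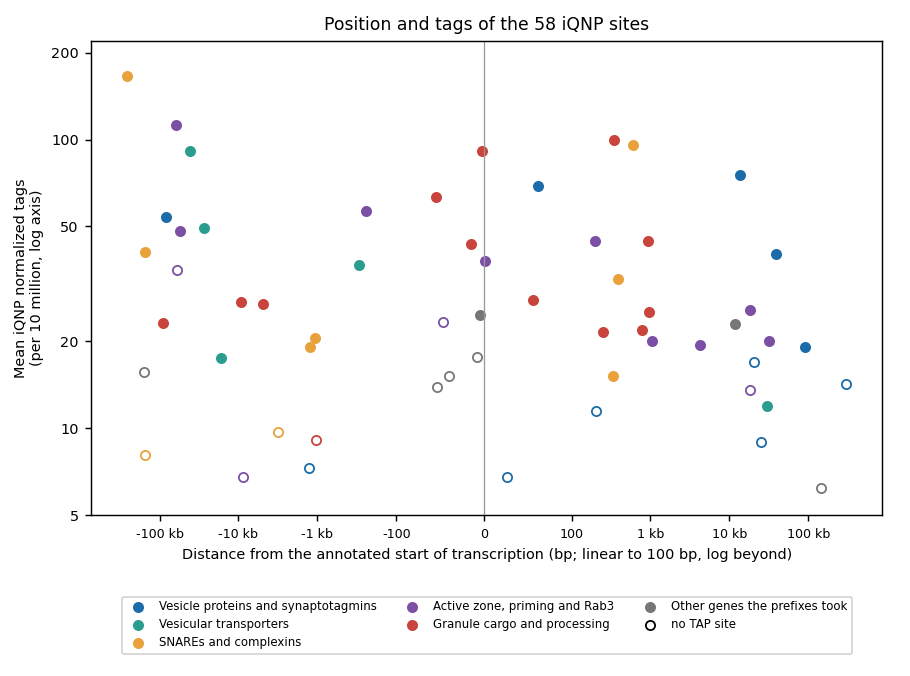
Each point is 1 of the 58 iQNP sites, placed by its distance from the annotated start (horizontal axis, bp, linear up to 100 bp and log beyond; negative is upstream) and its mean iQNP normalized tags per 10000000 (vertical log axis); colours are gene roles and open points have no TAP site. The 24 sites within 1 kb of a start reach from 6.79 tags at Syp to 99.6 at Chgb, and the site with the most tags, named for Vamp3, lies 256503 bp upstream.

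Occupancy is given as normalized tags, scaled by the authors to 10000000 tags per library, with the commercial antibody first and the homemade antibody second throughout. The median site had a mean of 23.3 normalized tags in iQNP, against 17.9 over all iQNP sites, and 17 of the 58 were above percentile 90 of all iQNP sites. The range ran from 6.21 at Sypl1 to 166.0 at the distal site named for Vamp3. At 54 of the 58 sites the commercial antibody gave more tags in iQNP, or 93.1%, against 83.3% of all iQNP sites. The 4 exceptions, at Rab33b, Rab39a, Sv2c and 1 of the Vamp3 sites, all lacked a TAP site.

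**Figure D2:**
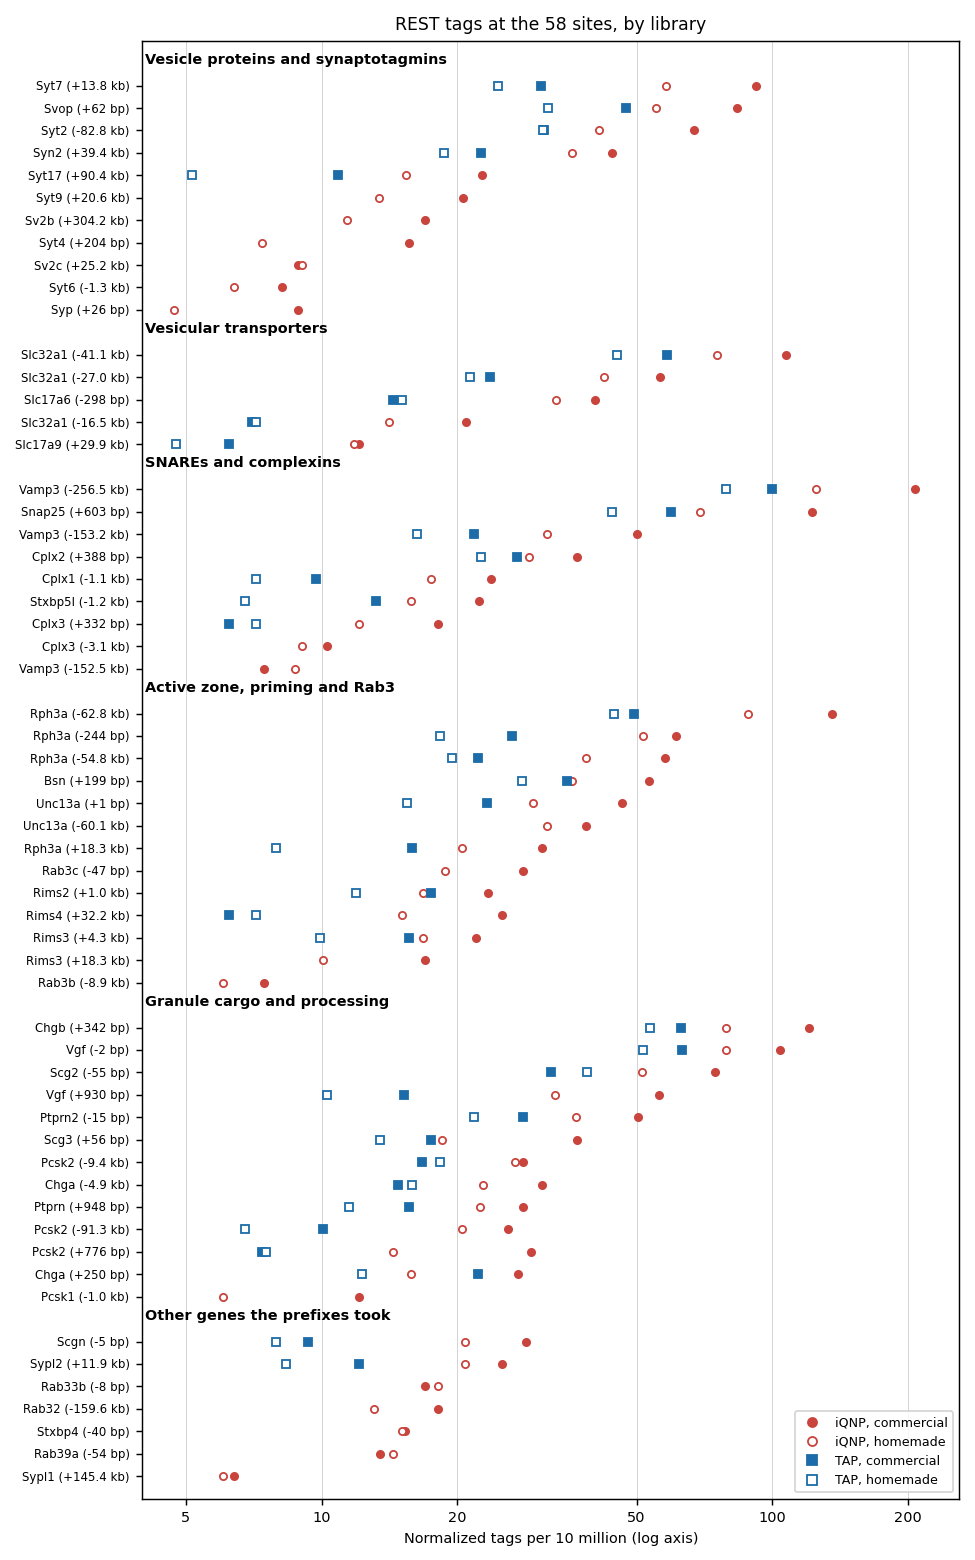
Normalized tags per 10000000 (log axis) in each library at the 58 sites, grouped by gene role, with the distance from the start in brackets; red circles are iQNP and blue squares TAP, filled for the commercial and open for the homemade antibody. Rows without squares have no TAP site. At 38 of the 40 sites with squares both circles lie to the right of both squares, the exceptions being Chga (+250 bp) and Rims2.

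The sites with a TAP partner were many. Sites of the 2 states counted as partners when no more than 50 bp separated their centres. All 40 TAP sites had an iQNP partner, where 97.2% of all TAP sites had one. In the other direction, 40 of the 58 iQNP sites had a TAP partner (69.0%; 95% Wilson interval, 56.2 to 79.4), against 42.6% of all iQNP sites. The centres of the partners were a median of 10.2 bp apart and at most 37 bp. The difference from all sites was widest near the start: within 1 kb, 18 of the 24 sites had a TAP partner, against 32.8% of all iQNP sites so close. Among promoter-TSS sites, 9 of 14 had one, against 24.0% of all such sites. These contrasts set sites of unlike strength side by side. The median iQNP tags within 1 kb were 30.3, against 17.4 over all iQNP sites so close. At promoter-TSS sites they were 32.2, against 16.2.

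Pairing followed the strength of the iQNP site. The 40 paired sites had a median of 34.8 normalized tags in iQNP and the 18 unpaired sites 12.5. Of the 22 sites with up to 20 tags, 6 had a TAP partner, and of the 36 with more, 34 did. In the class from 20 to 30 tags, 13 of 14 were paired, where 67.8% of all iQNP sites in that class were. In the class over 50 tags, 11 of 11 were paired, against 86.0% of all. With the share of all iQNP sites in each class of tags, the 58 sites would have had 32.5 partners, and they had 40. TAP tags at the unpaired positions were not analysed here, so a missing TAP site does not show that REST was absent.

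**Figure D3:**
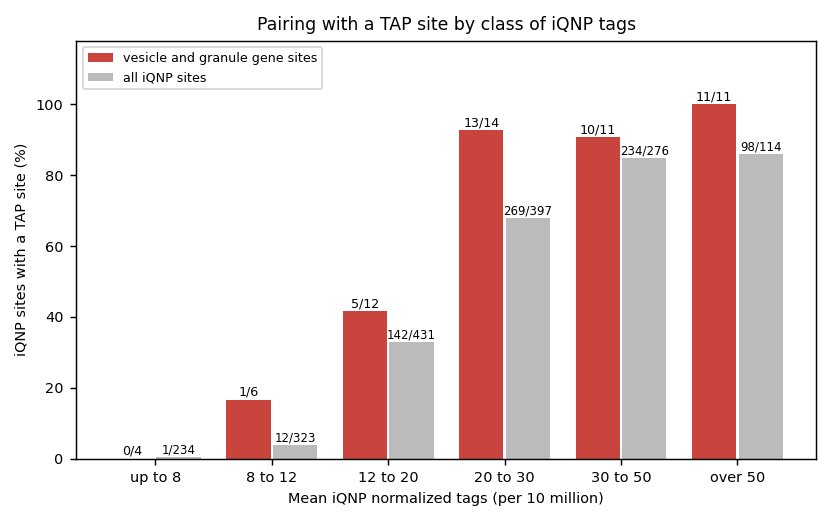
Share of iQNP sites with a TAP site within 50 bp (vertical axis, percent) in classes of mean iQNP normalized tags (horizontal axis), for sites of vesicle and granule genes (red) and for all iQNP sites (grey), with the counts above each bar. The share rises from 0 of 4 to 11 of 11 at the vesicle and granule genes, and from 1 of 234 to 98 of 114 over all sites.

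At the 40 shared sites REST tags were higher in iQNP. The mean was higher with both antibodies at 40 of 40 sites, and both iQNP libraries were above both TAP libraries at 38, or all but Chga (+250 bp) and Rims2, where 92.7% of all 756 shared sites had such a gap. On the log2 scale, the ratio of iQNP to TAP tags had a median of 0.96, with 1.06 for the commercial and 0.94 for the homemade antibody, and the median of all shared sites was 1.05. Of the 40, 19 were above that median. Total tags were compared by the quasi-likelihood test of edgeR, with Benjamini-Hochberg adjustment over all 756 shared sites. At an adjusted p under 0.05, 23 of the 40 were higher in iQNP (57.5%; 95% Wilson interval, 42.2 to 71.5), against 68.4% of all shared sites. None had more in TAP at an adjusted or an unadjusted p under 0.05, where 0.0% of all shared sites did by the adjusted p. DESeq2 scaled by the depths also gave 0. Scaled by its own size factors, DESeq2 called 0 of the 40 in either direction, with 13 adjusted p-values missing. It then called 3 of all 756 shared sites higher in TAP. By edgeR, the 68.4% of all shared sites lies within the interval of 42.2 to 71.5, and 17 of the 40 vesicle and granule sites did not pass. The edgeR fit counts the difference between the antibodies as spread, although both states used the same 2. With the antibody as a block, 37 of the 40 had an edgeR adjusted p under 0.05 with more tags in iQNP, against 94.8% of all shared sites. Of the 17, 14 then passed, and the 3 that did not were Chga (+250 bp), Cplx2 and Rims2. The blocked edgeR adjusted p was 4.29e-06 at Snap25, 0.00023 at the Vgf promoter, 6.35e-05 at Ptprn2, 0.00593 at Pcsk2 (9382 bp upstream), 0.00762 at Bsn and 0.0269 at Rims3. Each antibody had 1 library per state, so the blocked p-values do not measure a spread between cultures. Where a site is said below not to pass, this refers to the fit without the block.

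The count of 23 rests on single libraries and on the scaling. It was 0 without the TAP commercial library and 0 without the TAP homemade library, 19 without the iQNP commercial library and 39 without the iQNP homemade library. With TMM scaling over the shared sites, which moves the median of all of them from 1.05 to -0.01, 1 site passed as higher in iQNP and 3 passed as higher in TAP. Whether REST binding as a whole or the yield of the ChIP changed between the states cannot be told apart in these files, and the ratios below are best read against 1.05. The standard errors of the log2 fold changes ran from 0.38 to 0.51 and were larger at sites with more tags, so that strong sites passed less readily at the same ratio.

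**Figure D4:**
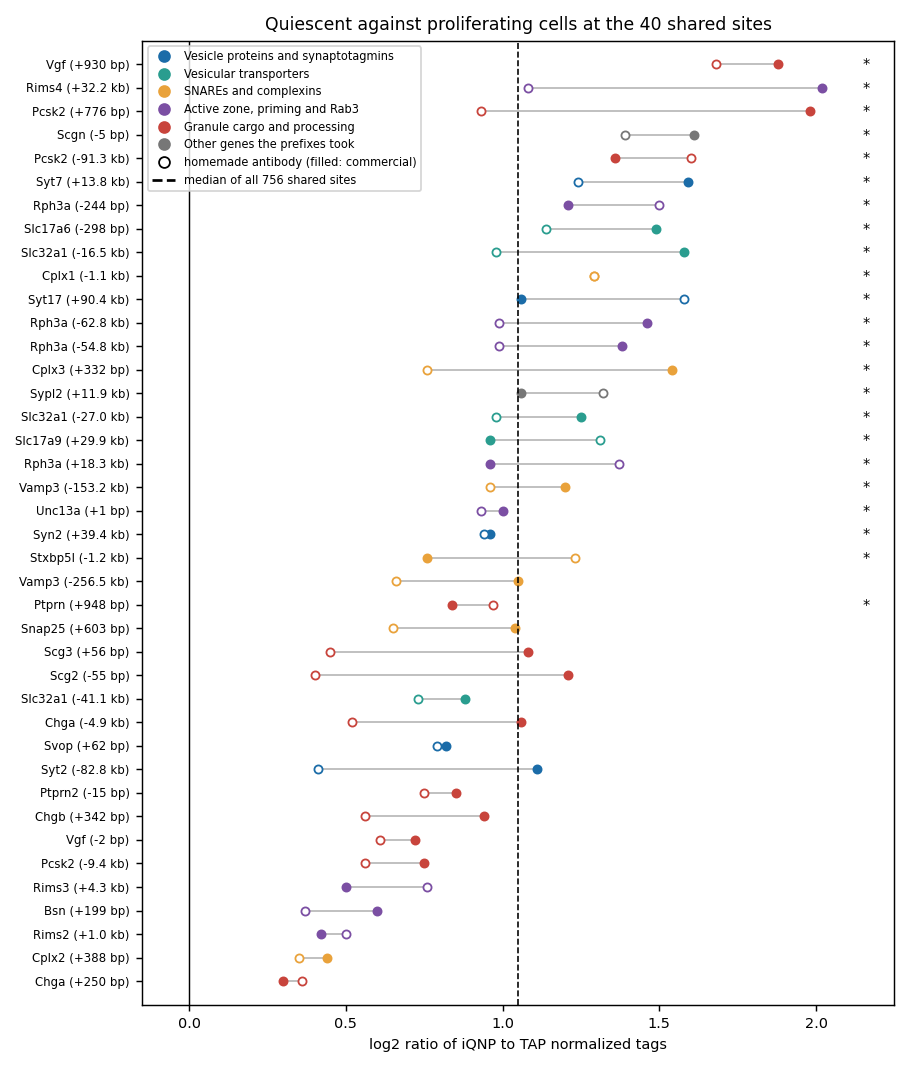
Ratio of iQNP to TAP tags on the log2 scale (horizontal axis) at the 40 shared sites, sorted by the ratio of the means, filled for the commercial and open for the homemade antibody, with gene roles in colour. The solid line is no difference, the dashed line is the median of all 756 shared sites, 1.05, and an asterisk marks an edgeR adjusted p under 0.05. All points lie to the right of 0, from 0.30 at Chga (+250 bp) to 2.02 at Rims4.

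Granule cargo and processing enzymes made up the group closest to transcription starts. Their 9 genes had 13 sites, 9 of them within 1 kb of the start and 12 with a TAP partner. The median log2 ratio of the 12 was 0.81, and 4 of the 12 had more tags in iQNP by the edgeR test, against 68.4% of all shared sites. Vgf, which encodes a peptide precursor of dense core granules, had a pair of sites 932 bp apart with unlike ratios. The site at the promoter, on chromosome 12 from 20903268 to 20903335, had 103.9 and 78.9 normalized tags in iQNP, against 63.0 and 51.6 in TAP. The site in exon 3, from 20904193 to 20904275, had 56.0 and 32.9 in iQNP, against 15.2 and 10.3 in TAP. Both sites were higher in both iQNP libraries, but the log2 ratios were 0.72 and 0.61 with the commercial and homemade antibodies at the promoter and 1.88 and 1.68 in exon 3. By edgeR, exon 3 had a log2 fold change of 1.79 (SE 0.43, adjusted p = 0.000632) and the promoter 0.68 (SE 0.47, adjusted p = 0.171). The difference between these sites was not itself tested. Exon 3 had the highest ratio of the 40 shared sites. It was also the site that passed as higher in iQNP under TMM scaling (log2 fold change 0.73, edgeR adjusted p = 0.00988).

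Chromogranins and secretogranins, acidic proteins that drive granule formation and yield peptides, were bound near their starts. Chgb had 120.3 and 78.9 normalized tags in iQNP, against 62.6 and 53.6 in TAP, in intron 1 on chromosome 3 from 120571845 to 120571910, which made it the third strongest of the 58 iQNP sites. Chga had a site in intron 1, 250 bp from the start, with 27.3 and 15.8 tags in iQNP, against 22.2 and 12.3 in TAP. Here the iQNP homemade library was below the TAP commercial library, and the log2 ratio of 0.32 was the lowest of the 40 (edgeR log2 fold change 0.31, SE 0.38, adjusted p = 0.419). Under TMM scaling, which sets the typical shared site near 0, the ratio of the same site was below 0 (log2 fold change -0.74, edgeR adjusted p = 0.0111). The other Chga site, 4892 bp upstream, had 30.9 and 22.8 tags in iQNP, against 14.8 and 15.9 in TAP, a log2 ratio of 0.81. Scg2, the precursor of secretoneurin, had 74.5 and 51.4 tags in iQNP, against 32.3 and 38.9 in TAP at its promoter. The antibodies disagreed in size at Scg2, with log2 ratios of 1.21 for the commercial and 0.40 for the homemade antibody. Scg3, which binds chromogranin A in granules, had 36.9 and 18.5 tags in iQNP, against 17.5 and 13.5 in TAP.

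Enzymes and membrane proteins of the granule varied more. Pcsk2, a convertase that cuts prohormones, had 3 sites over 92.0 kb of chromosome 3, all shared. The site 776 bp into the gene, in intron 1, had 29.1 and 14.4 normalized tags in iQNP, against 7.39 and 7.54 in TAP (edgeR log2 fold change 1.53, SE 0.40, adjusted p = 0.00111). The site 91.3 kb upstream had 25.9 and 20.5 in iQNP, against 10.1 and 6.75 in TAP (edgeR log2 fold change 1.46, SE 0.40, adjusted p = 0.00173). The site between them, 9382 bp upstream, had like iQNP tags of 28.0 and 26.9 but more TAP tags, 16.7 and 18.3, and did not pass (edgeR log2 fold change 0.65, SE 0.39, adjusted p = 0.119). Pcsk1, the convertase that acts earlier in the granule pathway, had 12.1 and 6.04 tags in iQNP and was the member of this group without a TAP site. Ptprn and Ptprn2 encode related transmembrane proteins of the granule. Ptprn had 28.0 and 22.5 tags in iQNP, against 15.6 and 11.5 in TAP, in intron 1, and passed the edgeR test (log2 fold change 0.89, SE 0.39, adjusted p = 0.0338). Ptprn2 had 50.4 and 36.6 in iQNP, against 28.0 and 21.8 in TAP at its promoter and did not (edgeR log2 fold change 0.80, SE 0.42, adjusted p = 0.074), though its ratio was close to that of Ptprn.

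Of the vesicle proteins and synaptotagmins, 11 genes had 1 site each and 5 of the 11 sites had a TAP partner. The median log2 ratio of the 5 was 0.95. By the edgeR test 3 of them had more tags in iQNP, against 68.4% of all shared sites. Syp, synaptophysin, the classical marker of synaptic vesicles, had among the fewest tags of all, 8.87 and 4.70 in iQNP, at its promoter on chromosome X from 26905227 to 26905305, and no TAP site. Syt4, a synaptotagmin found on dense core vesicles, had 15.6 and 7.39 tags in its 5' UTR and no TAP site either. Svop, a vesicle protein related to transporters, had 83.4 and 55.1 tags in iQNP, against 47.4 and 31.8 in TAP at its promoter. Both Syp and Svop were thus bound at the promoter, near opposite ends of the order of tags in this group. Syt7, a calcium sensor with high affinity, had 92.2 and 58.1 tags in iQNP, against 30.7 and 24.6 in TAP, in intron 1 at 13.8 kb from the start on chromosome 1, and passed the edgeR test (log2 fold change 1.44, SE 0.46, adjusted p = 0.0056). Syn2, a synapsin that tethers vesicles, had 44.0 and 35.9 in iQNP, against 22.6 and 18.7 in TAP, in intron 1 at 39.4 kb from the start (edgeR log2 fold change 0.95, SE 0.42, adjusted p = 0.0357). Syt9, another calcium sensor, had 20.6 and 13.4 tags in iQNP and no TAP site. The other 5 sites, of Syt2, Syt6, Syt17, Sv2b and Sv2c, had means from 7.27 to 54.1 tags in iQNP, and those of Syt2 and Syt17 had a TAP partner.

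The vesicular transporters had 5 sites at 3 genes, all 5 with a TAP partner. Of the 5, 4 passed the edgeR test as higher in iQNP, against 68.4% of all shared sites. Slc32a1, which loads GABA and glycine, had 3 sites upstream on chromosome 3 and none within 10 kb of the start. The farthest, at 41.1 kb, had 107.5 and 75.2 normalized tags in iQNP, against 58.3 and 45.3 in TAP. The next, at 27.0 kb, had 56.4 and 42.3 in iQNP, against 23.7 and 21.4 in TAP. The nearest, at 16.5 kb, had 20.9 and 14.1 in iQNP, against 7.0 and 7.15 in TAP. The tags thus fell with nearness to the gene in every library, while the log2 ratio rose from 0.82 to 1.13 and 1.31. The input was uneven here too: the site at 41.1 kb had the highest scaled input of the 58, 10.4 and 10.0 tags in iQNP, where the median of the 58 was 2.80 and 3.00. Its fold over input was lower in iQNP, at 29.2 and 22.4, than in TAP, at 41.4 and 32.2. Slc17a6, which loads glutamate, had 40.4 and 33.2 tags in iQNP, against 14.4 and 15.1 in TAP, 298 bp upstream of its start (edgeR log2 fold change 1.32, SE 0.41, adjusted p = 0.00499). Slc17a9, which loads nucleotides, had by the mean the fewest TAP tags of the 40 shared sites, 6.22 and 4.76, and 12.1 and 11.8 in iQNP.

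SNARE proteins and complexins had 9 sites at 6 genes, 7 with a TAP partner. Of the 7, 4 passed the edgeR test as higher in iQNP, against 68.4% of all shared sites. Snap25, the SNARE of the plasma membrane in neurons, had 122.7 and 69.2 normalized tags in iQNP, against 59.5 and 44.1 in TAP, in intron 1 on chromosome 3 from 124807433 to 124807499. It was the fourth strongest of the 58 iQNP sites by its mean, and it did not pass the edgeR test (log2 fold change 0.89, SE 0.48, adjusted p = 0.0798). Complexins clamp and trigger fusion, and 3 of them were bound. Cplx2 had 36.9 and 28.9 tags in iQNP, against 27.2 and 22.6 in TAP in intron 1, the second lowest ratio of the 40 (edgeR log2 fold change 0.40, SE 0.41, adjusted p = 0.334). Under TMM scaling its ratio was below that of the typical shared site (log2 fold change -0.65, edgeR adjusted p = 0.00991). Cplx1 had 23.8 and 17.5 in iQNP, against 9.72 and 7.15 in TAP, 1082 bp upstream, with a log2 ratio of 1.29 for each antibody (edgeR adjusted p = 0.00439). Cplx3 had a shared site 332 bp from its start, with 18.1 and 12.1 in iQNP, against 6.22 and 7.15 in TAP, and an unpaired one 3134 bp upstream with 10.3 and 9.07. The strongest of all 58 sites carried the name of Vamp3, a SNARE found in most cells, but lay in the intron of Camta1 256503 bp from Vamp3. It had 207.5 and 125.2 tags in iQNP, against 99.9 and 79.0 in TAP. A second site there, 153236 bp from Vamp3, had 50 and 31.6 in iQNP, against 21.8 and 16.3 in TAP. The third, 704 bp from the second, had 7.45 and 8.73 in iQNP and no TAP site. Stxbp5l, a tomosyn that binds SNAREs, passed the edgeR test with a log2 fold change of 0.92 (SE 0.38, adjusted p = 0.0292).

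Active zone, priming and Rab3 genes numbered 8, with 13 sites, 9 of them with a TAP partner. Of the 9, 6 passed the edgeR test as higher in iQNP, against 68.4% of all shared sites. Rph3a, rabphilin, an effector of Rab3 on vesicles, had 4 sites over 81.1 kb of chromosome 12, more than any other of the 44 genes, and all 4 were shared and passed the edgeR test. The strongest, 62.8 kb upstream, had 135.5 and 88.3 normalized tags in iQNP, against 49.4 and 44.5 in TAP. A second one, 54.8 kb upstream, had 57.8 and 38.6 in iQNP, against 22.2 and 19.5 in TAP. The promoter site, with the RE1 letters printed above, had 61.0 and 51.7 in iQNP, against 26.4 and 18.3 in TAP. The intron site, at 18.3 kb, had 30.9 and 20.5 in iQNP, against 15.9 and 7.94 in TAP. The 4 log2 ratios were alike, from 1.11 to 1.33, although the tags differed 4.35-fold between the strongest and the weakest. The promoter site had a lower fold over input in iQNP, 36.4 and 38.6, than in TAP, 75.2 and 51.9.

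Bsn, bassoon, a scaffold of the active zone, had 53.2 and 35.9 normalized tags in iQNP, against 35 and 27.8 in TAP in exon 1. The iQNP homemade and the TAP commercial values almost touched, and the site did not pass (edgeR log2 fold change 0.51, SE 0.42, adjusted p = 0.246). Under TMM scaling its ratio was below that of the typical shared site (log2 fold change -0.55, edgeR adjusted p = 0.0141). Unc13a, the priming factor Munc13, had 46.5 and 29.5 in iQNP, against 23.3 and 15.5 in TAP at the promoter on chromosome 16 (edgeR log2 fold change 0.96, SE 0.41, adjusted p = 0.033). The site on chromosome 12 that was assigned to Unc13a had 38.7 and 31.6 in iQNP, the most of the 18 unpaired sites, and the nearest TAP site was 1052798 bp away. The RIM genes fell at both ends of the order of ratios. Rims4 had 25.2 and 15.1 in iQNP, against 6.22 and 7.15 in TAP, in intron 1 at 32.2 kb (edgeR log2 fold change 1.59, SE 0.40, adjusted p = 0.000832). Rims2 had 23.4 and 16.8 in iQNP, against 17.5 and 11.9 in TAP, with overlapping states (edgeR log2 fold change 0.44, SE 0.38, adjusted p = 0.259). Rims3 had a shared site in intron 1 with 22 and 16.8 in iQNP, against 15.6 and 9.93 in TAP, and its log2 fold change of 0.61 did not pass (SE 0.38, edgeR adjusted p = 0.128). The other Rims3 site, in intron 3, had 17.0 and 10.1 and no TAP site. Of the Rab3 genes, GTPases on vesicles, Rab3c had 28.0 and 18.8 tags at its promoter and Rab3b 7.45 and 6.04 at 8878 bp upstream, both in iQNP without a TAP site.

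The prefixes also took 7 genes outside these groups, among them Rab33b of the Golgi, Rab32 of lysosome-related organelles, Sypl1 and Sypl2, relatives of synaptophysin, and Stxbp4, which binds a syntaxin. Their 7 sites had a median of 15.6 normalized tags, the lowest of the groups, and 2 had a TAP partner. Scgn, secretagogin, a calcium-binding protein of endocrine cells, was 1 of the 2, with 28.4 and 20.8 tags in iQNP, against 9.33 and 7.94 in TAP at its promoter (edgeR log2 fold change 1.5, SE 0.40, adjusted p = 0.00139). On fold over input it went the other way, with 21.2 and 15.5 in iQNP, against 53.0 and 45.1 in TAP, the lowest log2 ratio of fold over input of the 40, -1.42. Chgb was next, at -1.32, with 39.9 and 26.2 in iQNP, against 89.0 and 76.2 in TAP, and its scaled iQNP input of 8.5 and 9.0 tags was the second highest of the 58. In all, 7 of the 40 shared sites, or 17.5%, had a lower mean fold over input in iQNP, against 25.8% of all shared sites. These folds rest on few input tags: the scaled TAP input at the 40 sites had medians of 1.8 and 1.8 and minima of 0.5 and 0.4. Both antibodies of a state shared 1 input library, so their folds are not independent. The unpaired sites of Rab33b and Rab32 had 17.0 and 18.1 and 18.1 and 13.1 tags in iQNP.

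The sites covered part of the canonical genes. Of 62 canonical genes that the prefixes could have taken, 35 were the nearest gene of an iQNP site and 25 had one within 10 kb of the start; 26 and 19 had a TAP site by the same limits. The 27 without a site included Syn1, Sv2a, Syt1, Stx1a, Vamp2 and Slc17a7, all of the core machinery of transmitter release in the brain. A list of 26 further genes of release and secretion outside the prefixes, such as Nsf, Cadps and Resp18, had 8 genes with an iQNP site within 10 kb and 5 with a TAP site. A list of 15 neuropeptides and related signals had 5 and 4. Sites of these 2 lists numbered 27 in iQNP at any distance and 18 were shared, of which 10, or 55.6%, had more tags in iQNP by the edgeR test, against 68.4% of all shared sites, and 0 had more in TAP. Their median log2 ratio was 0.95, against 0.96 at the vesicle and granule sites. Sst, somatostatin, a peptide of inhibitory interneurons, had 44.0 and 29.5 normalized tags in iQNP, against 10.9 and 10.7 in TAP in its intron (log2 ratio 1.77, edgeR adjusted p = 0.000624), next to the exon site of Vgf in size.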

How the data were processed

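REST ChIP-seq of HCN cells in the iQNP and TAP states was read from the peak tables. Per the labels and the study's methods, the authors mapped reads to rn4 with Bowtie2, ran HOMER on every library with its input (Poisson p at most 1e-04) and kept peaks that both antibodies gave within 50 bp. As deposited, total tags are counts. The authors scaled normalized tags, a signal, to 10000000 tags, scaled the input tags, a signal, to the library, and gave fold over input as a ratio with its p-value. Classes, nearest genes and distances came from the authors' annotation, which repeats 1 site per state (dropped).

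Depth was total over normalized tags. Sites up to 50 bp apart, centre to centre, were paired, the closest first. Total tags at all shared sites were tested with edgeR 4.0.16 (R 4.3.3), quasi-likelihood, depths as library sizes, no term besides state, and Benjamini-Hochberg adjustment. In simulated tags for the 756 sites, 200 were given log2 changes of 2. The test found 100% of them, and 3.85% of all calls were false. The log2 ratios at the shared vesicle and granule sites were smaller, with a median of 0.96 and a maximum of 1.8. The simulation therefore does not show how often changes of their size would be found. With 2 libraries against 2, an exact permutation test could not reach 0.05. DESeq2 1.42.0 was an alternative.

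Members, prefixes and lists were chosen with earlier results of these data known. Values in every library are given for the 5 strongest sites per state, the 5 highest and 5 lowest ratios, genes with several sites, the 5 strongest unpaired sites and a list of canonical genes. RNA-seq was not analysed here.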

Additional observations from a re-analysis of the deposited data

How the results depend on the processing

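Of 38 alternative values of 6 results, 28 stayed within 1.5 times a count or within the spread between antibodies, 9 moved further and 1 changed sign. With TMM over the shared sites, the 23 shared sites that passed the edgeR test as higher in iQNP became 1, and 3 passed as higher in TAP. They became 0 with DESeq2 and its own size factors, where 13 adjusted p-values of these sites were not given. Both scalings set the typical shared site near 0 by construction. With the antibody as a replicate block the 23 became 37. The number of a replicate stands for the antibody, and deviations of same-numbered libraries from their state means correlated at 0.0445 across shared sites, a value that does not measure an offset common to all sites of an antibody. The coefficient of variation between libraries was 0.211 without the block and 0.0897 with it. Over all shared sites the block gave 717 calls against 517. Leaving out 1 library at a time gave from 0 to 39 of the sites; the lone library left in a state was then assumed to vary like the others. The median log2 ratio of 0.96 was -0.1 with TMM, 0.83 at sites within 10 kb of a start, and 0.94 to 1.06 with 1 antibody left out. A start was within 10 kb of 34 of the 58 iQNP sites, and 24 of these 34 had a TAP site. Chosen after seeing the data, leaving out the sites placed in another gene and the chromosome 12 site of Unc13a gave 37 of 51 paired. Of these 37, 21 passed the edgeR test as higher in iQNP, and their median log2 ratio was 0.95. With 1 library per antibody and state, and tags as low as 4.70 per 10000000, differences between weak sites are not resolved.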

Other observations

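Among the further genes of release and secretion, some strong iQNP sites had no TAP site. Cpe, carboxypeptidase E, which trims peptides after the convertases, was the nearest gene of 3 sites far beyond its start, between 561272 and 801639 bp from it. Of these, the site at 628092 bp had 194.0 and 142.0 normalized tags in iQNP with the commercial and homemade antibodies, a mean of 168.0 and more than any of the 58 sites at vesicle and granule genes, and the nearest TAP site was 66818 bp away. The other Cpe sites had 139.4 and 107.8 and 204.0 and 141.0 tags in iQNP and both had a TAP partner. Scamp5, a membrane protein of secretory carriers, had 48.2 and 58.8 tags in iQNP at its promoter, more with the homemade than with the commercial antibody, and its nearest TAP site was 148036 bp away. TAP tags at these positions were not analysed here. Among the neuropeptides, Cartpt had a log2 ratio of 0.46 and Sst 1.77, so that 2 peptide genes bound within 1 kb of their starts spanned most of the range seen at the vesicle and granule genes.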
